A study of Rattus norvegicus with 6 samples.

Results

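The miR-379 to miR-410 cluster is the longer of the microRNA (miRNA) groups in the imprinted Dlk1-Dio3 region, and its mature miRNAs are described here in rat lung after ischemia reperfusion (IR). Members were taken by name, as every listed miRNA built on 1 of 35 stems that run from miR-379 to miR-410. This choice was made with earlier results of these data known, so counts of called members are descriptions. The rule found 52 of the 693 listed miRNAs, from 33 of the stems. miR-679 and miR-544 gave no row and are not analysed here. Small RNA was sequenced from lung of Sprague-Dawley rats in 3 IR and 3 sham samples, 1 library each. By the study's methods the rats were males of 7 to 8 weeks under urethane anesthesia with ventilation and opening of the chest. In the IR group the left hilum was closed for 45 minutes and blood flow was then restored, and the sham group (treatment label control, titles NC) had the surgery without the clamp. The sources used here give no duration of reperfusion. The study calls the samples biological replicates, and no allele or drug separates the groups.

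Most miRNAs of the cluster are cut from a long non-coding transcript made from the maternal copy of the region, so that many hairpins come from shared precursor RNA. The cluster is known for high levels in brain, embryo and placenta and low levels in most adult tissues. A miRNA finds its targets mainly through its seed, bases 2 to 8 from the 5′ end, and each hairpin can give a mature miRNA from its 5′ arm (5p) and its 3′ arm (3p).

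In the RefSeq table of GRCr8, 41 miRNA genes run from Mir379 to Mir410, of which 34 lie on the plus and 7 on the minus strand, and 33 of these genes have a member here. RefSeq held the mature sequence of all 52 members. The sequences of the 5 members with the most reads are shown first, 5′ to 3′, since the levels below turn on them. With them are the members among the miRNAs that the study took to qPCR (miR-667-5p and miR-329-5p). Capitals mark the seed.
miR-411-5p: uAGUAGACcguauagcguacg
miR-541-5p: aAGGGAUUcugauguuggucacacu
miR-379-5p: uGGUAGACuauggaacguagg
miR-134-5p: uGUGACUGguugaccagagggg
miR-300-3p: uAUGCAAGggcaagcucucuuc
miR-667-5p: cGGUGCUGguggagcagugagcac
miR-329-5p: aGAGGUUUucugggucucuguuuc
The seeds of miR-379-5p and miR-411-5p, from neighbouring hairpins, differ by 1 base (G2A, the base of miR-379-5p first and positions counted from the 5′ end). Among all members, 3 seeds were held by more than 1 mature miRNA. They were AUGUGGG in miR-299a-3p and miR-299b-3p, GGUUUAC in miR-299a-5p and miR-299b-5p, and AUACAAG in miR-381-3p and miR-539-3p.

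The next sequences are those of a member and a miRNA from elsewhere in the genome with the same seed, shown so that the levels of the seed partners can be set side by side. Capitals mark the seed.
miR-329-3p: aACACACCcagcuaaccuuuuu
miR-362-3p: aACACACCuguucaaggauuca
miR-329-3p had 41 reads over the 6 libraries, and mean levels of 0.252 ± 0.267 (sham) and 1.51 ± 0.661 (IR) normalised counts per 1000000 reads (CPM), with the SD of 3 libraries. Its seed partner miR-362-3p had 612 reads, with 13.99 normalised CPM in sham and 9.05 after IR (log2 fold change -0.61 ± 0.25 as standard error, and in edgeR adjusted p = 0.163), and so did not pass the test.

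Some members are named for genes on opposite strands of the same place, and the 4 such pairs with the most reads are shown because their counts were close, as described further down. Capitals mark the bases that pair with the other sequence.
miR-409a-3p: AAUGUUGCUCGGUGAACCCC
miR-409b: aGGGGUUCACCGAGCAACAUUcg
miR-299a-3p: UAUGUGGGACGGUAAACCGcu
miR-299b-5p: CGGUUUACCGUCCCACAUAc
miR-382-3p: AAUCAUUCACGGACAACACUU
miR-3592: AAGUGUUGUCCGUGAAUGAUU
miR-369-5p: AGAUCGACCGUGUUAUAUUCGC
miR-3578: GCGAAUAUAACACGGUCGAUCU
The complementary runs are 20, 19, 21 and 22 bases long in the order shown. miR-3592 and miR-3578 are not members by the rule.

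The deposited table holds whole read counts, with 3775663 (IR replicate 2) to 11248166 (IR replicate 3) reads on listed miRNAs per library. The cluster took few of these reads, 10189 over all 6 libraries. It had 913, 559 and 814 reads in sham replicates 1, 2 and 3 and 1380, 2176 and 4347 in IR replicates 1, 2 and 3, the order used for all values below. These were 0.0122%, 0.00522% and 0.00790% of the reads in sham and 0.0219%, 0.0576% and 0.0386% after IR. Every IR library thus lay above every sham library. A count of 3 reads, the limit that a count of 0 allows, was 0.267 to 0.795 on the deposited TPM scale. As no molecular tags are described for these PCR-amplified libraries, the intervals and limits below cover counting error only.

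Normalised CPM here are a library's counts per 1000000 reads after scaling by its TMM factor, which was 0.867 in sham replicate 3 and 0.929 to 1.06 elsewhere. Sham replicate 3 also stood apart in miR-21-5p, which took 24.2% of its reads against 9.66% to 13.5% in the other libraries. Summed over members, the cluster stood at 115, 49.6 and 91.2 normalised CPM in sham and at 208.3, 620.3 and 366 after IR. The means were 85.3 ± 33.1 and 398 ± 207.9 (SD of 3 libraries), a ratio of 4.67. The libraries of a group spanned 2.32-fold in sham and 2.98-fold after IR. With 1 library left out the ratio was 3.37 (without IR replicate 2) to 5.79 (without IR replicate 1). In lung tissue as a whole, more cells that hold these miRNAs and more of the miRNAs per cell cannot be told apart.

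A few members held most of the reads. miR-411-5p alone made up 43.4%, 44.7% and 41.2% of the cluster's reads in sham and 35.7%, 23.2% and 36.9% after IR. The 5 members with the most reads held 75.2% of them over all libraries. miR-541-5p held 14.5%, 7.33% and 13.0% in sham and 18.2%, 37.9% and 14.4% after IR, and in IR replicate 2 it was the most-read member. Without miR-541-5p the summed level was 74.5 ± 26.6 in sham and 290 ± 109 after IR, a ratio of 3.89. With miR-411-5p, miR-379-5p and miR-541-5p all left out the ratio was 5.08, from 24.8 ± 9.14 to 126.2 ± 65.3.

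**Figure D1:**
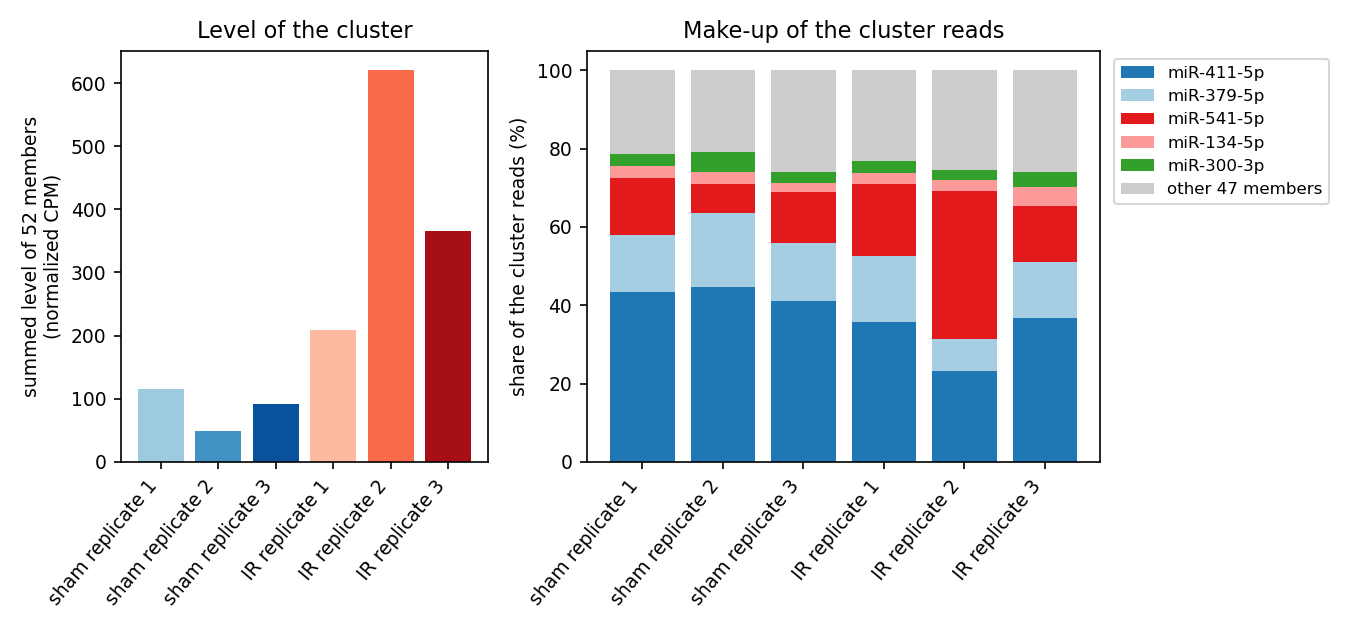
Share of the cluster's reads (percent, vertical axis) held by its 5 members with the most reads and by all other members together, in each of the 3 sham and 3 IR libraries. miR-411-5p is the largest in every library but IR replicate 2, where miR-541-5p holds 37.9%.

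IR and sham were compared for each miRNA by the quasi-likelihood test of edgeR, and p-values were adjusted by Benjamini-Hochberg over the 418 miRNAs that passed the filter on low counts. Among these 418, 33 were higher (7.89%) and 11 lower (2.63%) at an adjusted p under 0.05. The filter left 19 of the 52 members, from 15 genes, and the other 33 had too few reads. A member with many reads in 1 group alone can pass the filter, so the count over these 19 is a description of them and not of the cluster. Of the 19, 15 rose after IR, 0 fell and the other 4 did not reach the threshold (18 higher and 0 lower at an unadjusted p under 0.05). Their median log2 fold change was 2.30, with a range of 1.58 to 3.34, beside a median of -0.01 over all 418 and -0.03 over the 399 outside the cluster. All 3 IR libraries lay above all 3 sham libraries for 18 of the 19, and for 17.2% of all 418 tested miRNAs.

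Without a filter all 52 members could be tested. Then 18 (34.6%) were higher and 0 lower, against 6.06% higher among all 693 miRNAs. The 18 were the 15 above with miR-495, miR-667-5p and miR-329-5p. Of the 52 fitted changes, 47 lay above 0 and 5 below. DESeq2, which gave an adjusted p for 33 members, also called 18 higher and 0 lower, against 8.51% of all miRNAs with an adjusted p.

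**Figure D2:**
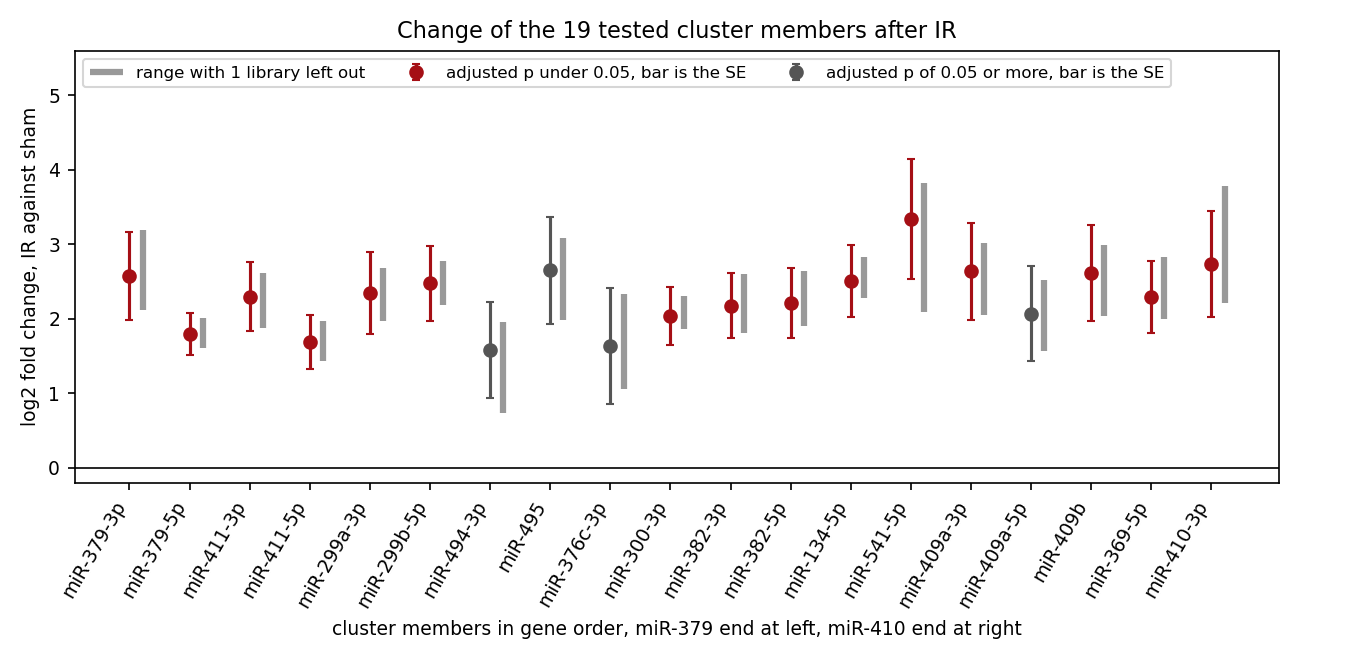
Log2 fold change of IR over sham (vertical axis) of the 19 tested members in gene order from the miR-379 end to the miR-410 end, with the standard error as bars. All 19 points lie above 0, from 1.58 for miR-494-3p to 3.34 for miR-541-5p, and colour separates the 15 with an adjusted p under 0.05 from the other 4.

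The hairpins of miR-379, miR-411 and miR-299 stand at the first end of the cluster, and all 6 tested members from it were higher after IR. miR-379-5p, which gives the cluster its name, had 16.9, 9.31 and 13.3 normalised CPM in sham and 35.5, 50.2 and 51.7 after IR (log2 fold change 1.80, standard error 0.28, adjusted p = 0.0138). The IR libraries were all above 35 and the sham libraries all below 17. Its passenger arm miR-379-3p was rare, with 0.252, 0.0887 and 0.448 in sham and 1.36, 2.28 and 1.35 after IR (log2 fold change 2.57, standard error 0.59, adjusted p = 0.0301). Without sham replicate 3 the log2 fold change of miR-379-3p was 3.19, but it did not pass (adjusted p = 0.0576). It was called in 1 of the 6 fits with a library left out. miR-411-5p, the most abundant member, stood at 49.9, 22.2 and 37.5 in sham and 74.3, 143.95 and 135 after IR (log2 fold change 1.69, standard error 0.36, adjusted p = 0.0229). Its lowest IR library was still above its highest sham library. For miR-411-3p, from the other arm, the values were 1.51, 1.68 and 1.90 in sham and 3.92, 13.4 and 8.51 after IR (log2 fold change 2.30, standard error 0.46, adjusted p = 0.0229). Its sham libraries were close together, whereas the IR libraries differed severalfold. miR-299a-3p had 2.02, 0.621 and 1.57 in sham and 3.32, 10.3 and 7.84 after IR (log2 fold change 2.35, standard error 0.55, adjusted p = 0.0317). miR-299b-5p, named for the gene on the opposite strand at the same place, had 1.51, 0.621 and 1.12 in sham and 2.87, 8.27 and 6.99 after IR (log2 fold change 2.48, standard error 0.51, adjusted p = 0.0229). Both had their lowest value in sham replicate 2, and the groups did not overlap.

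In the middle of the cluster, from miR-494 to miR-300, 4 members were tested and 1 of them passed. In mice, miR-329, miR-487b, miR-494 and miR-495 are known from work on blood vessel growth after limb ischemia. miR-494-3p had 1.89, 0.798 and 2.24 normalised CPM in sham and 2.57, 10.3 and 2.86 after IR, and did not pass (log2 fold change 1.58, standard error 0.64, adjusted p = 0.163). Sham replicate 3 and IR replicates 1 and 3 lay close together, and only IR replicate 2 stood far above them. Without that library its log2 fold change was 0.74. miR-495 had 1.01, 0.355 and 0.896 in sham and 1.36, 9.12 and 4.30 after IR (log2 fold change 2.65, standard error 0.72, adjusted p = 0.0547). Its groups did not overlap, but sham replicate 1 and IR replicate 1 were close. miR-376c-3p, of a family known for adenosine-to-inosine editing, had 1.01, 0.0887 and 1.46 in sham and 1.21, 4.56 and 2.44 after IR (log2 fold change 1.64, standard error 0.78, adjusted p = 0.231), and was the tested member whose groups overlapped. miR-300-3p, the fifth most-read member, had 3.65, 2.57 and 2.46 in sham and 6.34, 15.1 and 14.5 after IR (log2 fold change 2.04, standard error 0.39, adjusted p = 0.0229). Every IR library was above every sham library, and the sham libraries were close together.

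The hairpins of miR-382 and miR-134 follow, and all 3 tested members rose. miR-382-5p had 1.39, 0.798 and 2.24 normalised CPM in sham and 4.38, 9.98 and 6.57 after IR (log2 fold change 2.22, standard error 0.47, adjusted p = 0.0229). miR-382-3p had 1.13, 0.443 and 1.57 in sham and 4.53, 4.85 and 4.72 after IR (log2 fold change 2.18, standard error 0.44, adjusted p = 0.0229). The IR libraries of miR-382-3p were nearly level with each other, unlike those of the other tested members. miR-134-5p, known in neurons as a regulator of Limk1 and of dendritic spine size, had 3.40, 1.60 and 2.24 in sham and 6.04, 18.0 and 17.1 after IR (log2 fold change 2.51, standard error 0.48, adjusted p = 0.0229). IR replicates 2 and 3 were alike and IR replicate 1 was lower, though above all sham libraries.

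Toward the miR-410 end, 5 of the 6 tested members rose. miR-541-5p had the largest change of the 19, with 16.6, 3.64 and 11.9 normalised CPM in sham and 37.9, 235 and 52.9 after IR (log2 fold change 3.34, standard error 0.81, adjusted p = 0.0370). IR replicate 2 was far above the other IR libraries, and without it the log2 fold change was 2.09 (adjusted p = 0.0621). miR-409a-3p had 2.52, 0.621 and 2.02 in sham and 4.08, 18.5 and 9.77 after IR (log2 fold change 2.64, standard error 0.65, adjusted p = 0.0397). miR-409a-5p, from the same hairpin, had 1.13, 0.266 and 0.784 in sham and 1.51, 5.42 and 2.61 after IR, and did not pass (log2 fold change 2.07, standard error 0.64, adjusted p = 0.0761). For miR-409b, whose gene Mir3581 lies on the opposite strand, the values were 2.52, 0.621 and 2.02 in sham and 4.08, 18.2 and 9.61 after IR (log2 fold change 2.62, standard error 0.65, adjusted p = 0.0397). In all 3, IR replicate 1 was the lowest and IR replicate 2 the highest IR library. miR-369-5p had 0.378, 0.266 and 0.784 in sham and 1.81, 2.28 and 2.86 after IR (log2 fold change 2.30, standard error 0.48, adjusted p = 0.0229). miR-410-3p, the last member, had 0.756, 0.0887 and 0.224 in sham and 1.21, 3.71 and 2.27 after IR (log2 fold change 2.74, standard error 0.71, adjusted p = 0.0482). The groups of both did not overlap, although sham replicate 1 of miR-410-3p was within 2-fold of IR replicate 1. Without sham replicate 1 its log2 fold change was 3.79, and it was called in 1 of the 5 fits with a library left out that tested it.

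**Figure D3:**
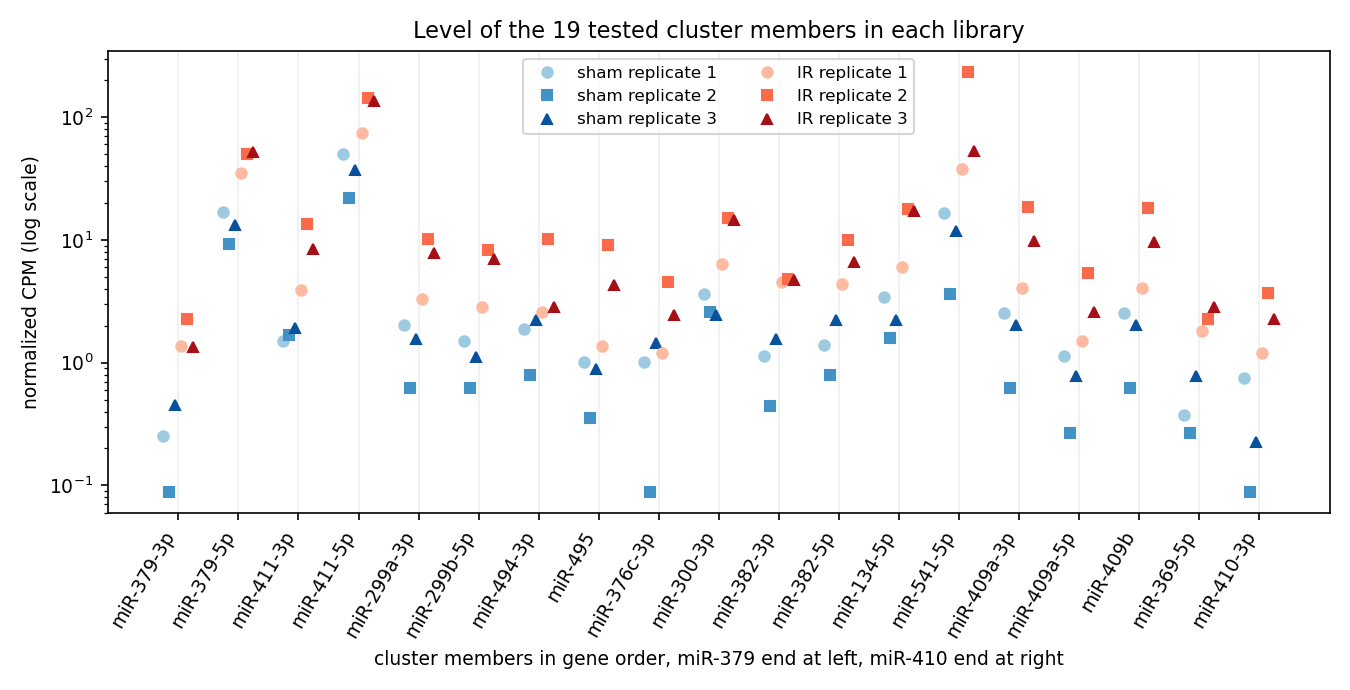
Normalised CPM (logarithmic axis) of the 19 tested members in each library, in gene order, with sham and IR libraries in different colours. The IR points lie above the sham points for all members except miR-376c-3p, and levels range from 0.0887 for miR-410-3p in sham replicate 2 to 234.9 for miR-541-5p in IR replicate 2.

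Libraries of a group kept much the same order across members, so the members are not independent readings of a condition. Sham replicate 2 was the lowest sham library for 17 of the 19 tested members, and its median level was 0.471 of the group mean. Sham replicate 1 was highest for 12 and sham replicate 3 for 7. After IR, replicate 1 was lowest for 18 of the 19, with a median of 0.475 of the group mean, and replicate 2, the library with the fewest reads, was highest for 17. The part of depth in this order was not tested. The number of members called depended on single libraries. It was 15 of 29 tested without sham replicate 1, 11 of 25 without sham replicate 2 and 4 of 25 without sham replicate 3. Those fits called 6.89%, 9.52% and 4.05% of all tested miRNAs higher. Without IR replicate 1 it was 14 of 27 (5.18% of all), and without IR replicate 2 it was 1 of 20. Without IR replicate 3 it was 0 of 17 by edgeR, with all 17 higher at an unadjusted p and adjusted p-values of 0.0700 to 0.177. Without IR replicates 2 and 3, in turn, the fits called 12 of 436 (2.75%) and 2 of 410 (0.488%) of all tested miRNAs higher. miR-379-5p was called in 5 of these 6 fits and miR-382-5p in 4, more than any other tested member. All fitted changes of the 19 stayed above 0 in each fit that tested them, at 0.74 or more.

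The 33 members under the filter had 1 to 58 reads each over the 6 libraries. Summed, they stood at 4.32 ± 1.32 (sham) and 23.2 ± 13.5 (IR) normalised CPM, with the SD of 3 libraries, a ratio of 5.37. By mean normalised CPM 29 of the 33 were higher after IR. The other 4 were miR-323-3p, miR-376a-5p, miR-134-3p and miR-412-3p, with 1 to 8 reads each. For 11 of the 33 all IR libraries lay above all sham libraries, and for 0 the reverse. The former share was 9.45% over all 275 miRNAs under the filter. The ratio of IR to sham, from reads summed over each group and divided by the group's total, had a 95% exact (Clopper-Pearson) interval above 1 for 16 of the 33, and for 13.1% of the 275.

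miR-667-5p and miR-329-5p are among these. The study took both to qPCR as top upregulated miRNAs of this same sequencing. Their ratios and p-values below thus come from the data that chose them. In the study's qPCR of rat lung, neither differed significantly between IR and sham. In its alveolar cells after hypoxia and reoxygenation, miR-667-5p was higher and miR-329-5p did not change significantly. miR-667-5p had 0 reads in each sham library and 5, 22 and 15 after IR, 18.7-fold if sham is set at 3 reads in all, the limit that 0 reads allow. With the counting error of the IR reads included, the lower 95% exact limit of the ratio was 14.5. With no filter its adjusted p was 0.0128 from edgeR, and it was 0.000237 from DESeq2. miR-329-5p had 0, 0 and 1 reads in sham and 2, 13 and 10 after IR, a ratio of 33.4 (95% exact interval 5.47 to 1371). Its adjusted p was 0.0394 from edgeR with no filter and 0.0158 from DESeq2. In both, IR replicate 1 was the lowest IR library. The other arms of their hairpins were also rare, with 6 reads after IR and 0 in sham for miR-667-3p and 33 and 8 reads for miR-329-3p (ratio 5.51, 95% exact interval 2.50 to 13.8).

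Further members of this group with an interval above 1 included miR-485-5p, with 49 reads after IR and 9 in sham (ratio 7.27, 95% exact interval 3.53 to 16.8). miR-543-3p had 39 and 6 reads (8.68, 3.65 to 25.1), all of the IR reads in replicates 2 and 3. miR-376b-3p had 37 and 5 reads (9.88, 3.88 to 32.2). miR-1193-3p had 34 and 7 reads (6.49, 2.83 to 17.3), and in normalised CPM its lowest IR library was replicate 2. miR-154-3p, of a hairpin described in human lung fibrosis, had 10 reads after IR and 0 in sham, 4.45-fold with sham set at 3 reads, with a lower 95% exact limit of 2.99. miR-369-3p, known from work on translation of Tnf mRNA, had 26 and 12 reads (2.89, 1.41 to 6.30). For miR-377-3p, with 10 and 8 reads (1.67, 0.593 to 4.87), a difference was not detectable at this depth. The same held for miR-381-3p, with 5 and 3 reads (2.23, 0.433 to 14.3).

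miR-381-3p shares 14 bases, CAAGGGCAAGCUCU, with miR-300-3p, and the seeds differ by 1 base (G4A, miR-300-3p first). miR-300-3p had 347 reads and miR-381-3p 8, over all libraries. The sources used here do not say how reads that fit both names were assigned. miR-495 (112 reads) and miR-543-3p (45 reads) share 11 bases, GGUGCACUUCU, at the same position. miR-376b-3p and miR-376c-3p have seeds that differ by 1 base (U2A, miR-376b-3p first), with 42 and 75 reads.

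Some names for opposite strands of 1 place had nearly equal counts. miR-409a-3p had 20, 7 and 18 reads in sham and 27, 65 and 116 after IR, and miR-409b had 20, 7 and 18 and 27, 64 and 114. miR-369-5p and miR-3578 were identical in every library, with 67 reads each. miR-382-3p had 131 reads in all and miR-3592 had 130, whereas miR-299a-3p and miR-299b-5p differed more, at 188 and 160. Over the whole table, 42 pairs of names pair over at least 15 bases on opposite strands. Of the 39 with at least 30 reads, 26 had counts within 5% or 2 reads of each other in each library. The abundant pair let-7a-5p and miR-3596a had 286593 and 286590 reads. Others were far apart, such as miR-126a-5p and miR-126b with 292420 and 3979 reads. The name with fewer reads in each pair, or the minus-strand name where reads were equal, was summed over the pairs. These names took 3.08% to 3.79% of a library's reads. Use of strand in the counting is not stated, so reads of the 2 strands cannot be told apart for the cluster's pairs, and the values of miR-409b and miR-299b-5p do not show RNA from their own strand. With each such pair counted once, an alternative added after the data were seen, 13 of 17 tested members were higher after IR and 0 lower.

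**Figure D4:**
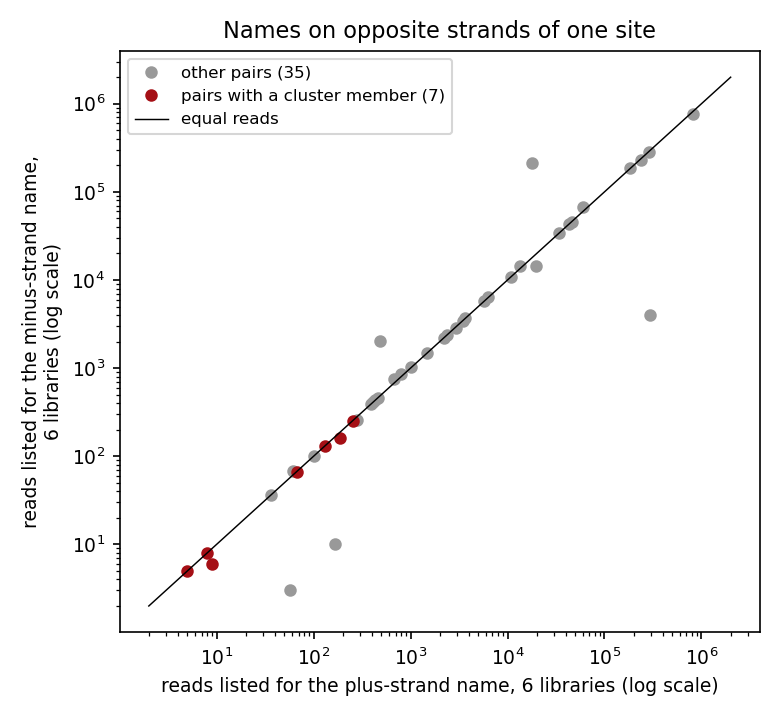
Reads summed over the 6 libraries for each pair of miRNA names on opposite strands, with the plus-strand name on the horizontal and the minus-strand name on the vertical axis (both logarithmic). The 7 pairs with a cluster member are marked, and miR-409a-3p with miR-409b (253 and 250 reads) lies on the line of equal counts.

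Both arms could be compared for 10 hairpins of the cluster with at least 20 reads per group. The 5p arm held nearly all reads of miR-379, miR-411, miR-134 and miR-541, and the 3p arm at least 90.2% of those of miR-300 and miR-299a. Both arms of miR-382 were well covered, with 41.2% of reads from the 3p arm in sham (95% exact interval 29.4% to 53.8%) and 42.0% after IR (35.8% to 48.5%). That of miR-369 held 48.0% (27.8% to 68.7%) in sham and 32.5% (22.4% to 43.9%) after IR, with overlapping library values. miR-409a was the 1 hairpin of 10 whose libraries did not overlap, with 69.0%, 70.0% and 72.0% in sham and 73.0%, 77.4% and 78.9% after IR. Of all hairpins compared, 11.6% (22 of 189) separated, so 1 in 10 is near the background. In the pooled reads of each group, the more abundant arm was the same in sham and IR for all 10 hairpins. The 10 include miR-299b, with 9.4% of reads from the 3p arm in sham and 2.2% after IR. It is named for the opposite strand of the miR-299a place, and reads of the strands cannot be told apart. That place may therefore be counted more than once.

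**Figure D5:**
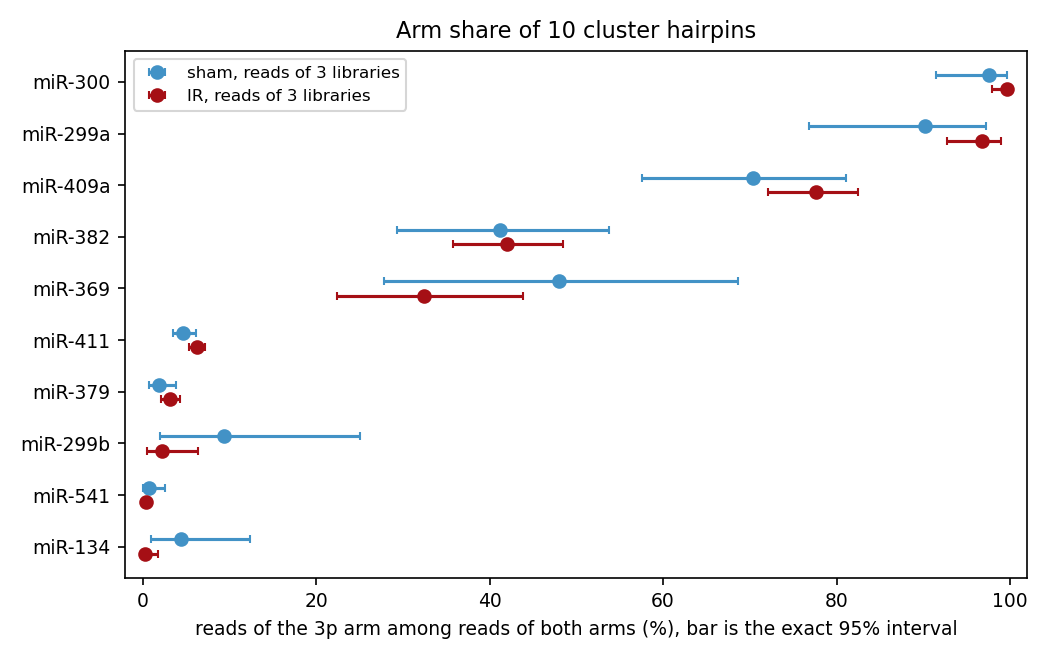
Share of reads from the 3p arm (percent) for the 10 hairpins of the cluster with both arms listed, from the pooled reads of each group, with its 95% exact interval. For miR-409a, the hairpin whose library values did not overlap, the pooled share is 70.3% in sham and 77.6% after IR, and the pooled intervals overlap.

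Across the 19 tested members, the log2 fold change was larger toward the miR-410 end (Spearman's rho 0.41 against gene order, and 0.52 over the 15 genes). It had little relation to level (rho -0.06). Names on opposite strands of 1 place, such as miR-409a-3p and miR-409b near the miR-410 end, count as separate points and genes despite nearly equal reads. The points also share the same 6 libraries and, in part, the same hairpins, so these are descriptions without a test.

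The smaller group of imprinted miRNAs nearer Dlk1 (among them miR-127, miR-136 and miR-434) was set beside the cluster. Of its 22 listed miRNAs 10 were tested, 8 were higher, 0 were lower and 2 missed the threshold, and the median log2 fold change was 2.06. Its summed level was 86.4, 33.5 and 65.6 normalised CPM in sham and 203, 289 and 254 after IR. Sham replicate 2 was again the lowest sham library and IR replicate 1 the lowest IR library. Its highest IR library was within 2-fold of its lowest.

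Markers of cell types were read in the same libraries. Endothelial miRNAs, mostly miR-126a-3p, summed to 88121 to 111275 normalised CPM in sham and 83214 to 105486 after IR, with 0 of 3 called. Of 14 tested miRNAs typical of lung epithelium 0 were called in either direction, with summed levels of 17070 to 24760 in sham and 25163 to 26182 after IR. Lymphocyte miRNAs stood at 1693 to 1766 in sham and 972 to 1163 after IR, with 1 of 4 lower, and myeloid miRNAs at 1812 to 3046 and 1315 to 1645, with 0 of 4 called. For neural and neuroendocrine miRNAs, the cell types in which the cluster is best known, 0 of 7 tested were called. Their sums overlapped, at 3792 to 5148 in sham and 4447 to 7749 after IR, and were mostly miR-375-3p and miR-7a-5p. Neuronal miR-124-3p had 0 to 6 reads per library. miR-9a-5p had 26.6, 39.7 and 50.1 in sham and 37.6, 142.5 and 31.7 after IR (log2 fold change 0.85, standard error 0.56, edgeR adjusted p = 0.360). miR-9b-3p, named for the opposite strand, had nearly the same counts and was tested apart. Of the 7 fitted changes, 6 lay above 0. Erythroid miRNAs had a median log2 fold change of -0.93, with 0 of 4 called and overlapping sums of 1234 to 4048 in sham and 1493 to 2155 after IR. Smooth muscle miRNAs, with 0 of 4 called, stood at 133739 to 163108 in sham and 141102 to 161055 after IR. Striated muscle sums, mostly miR-499-5p, overlapped as well, at 139 to 173 in sham and 147 to 198 after IR. Of the 5 tested, 3 fitted changes lay above 0 and 1 miRNA was called, miR-1-3p, which was higher. It had 14.4, 12.1 and 11.1 normalised CPM in sham and 28.2, 35.1 and 30.2 after IR, without overlap. Its log2 fold change was 1.31 (standard error 0.21, edgeR adjusted p = 0.0138). Liver miR-122-5p had 5, 7 and 59 reads in sham and 61, 19 and 69 after IR. Epithelial, lymphocyte and myeloid sums separated the groups, as the cluster did, and their part in the cluster's change was not tested.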

How the data were processed

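Per the labels, small RNA libraries were made from 3 µg of total lung RNA (NEBNext kit). The authors deposited 1 table of read counts per miRNA and library with a TPM value for each. These deposited TPM equal the counts per 1000000 of a library's listed reads. Bowtie is named in the submitters' processing notes, while the sources used here name no build, annotation or counting tool, so no coordinates are used. The members, lists and tests were chosen with earlier results of these data known.

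The analysis used edgeR 4.0.16 in R 4.3.3: filterByExpr (minimum count 10, minimum total 15), TMM, and the quasi-likelihood test of IR against sham, with calls at a p under 0.05 after Benjamini-Hochberg adjustment. The standard error is the log2 fold change over the square root of F. DESeq2 1.42.0, limma 3.58.1, other scalings and filters, a replicate block, names with near-equal counts taken once and each library left out were alternatives. Named were all tested members, miR-667-5p and miR-329-5p with every library's value, and others by group sums; which rare members, list miRNAs and partner names to name was chosen after their values were seen. Tested on simulated counts for IR against sham (408 miRNAs tested), the test called 68 of 97 changed 2-fold, 95 of 98 changed 4-fold and 4 of 213 unchanged. The simulation changed a far larger share of miRNAs than was called in the data, and it drew each miRNA independently. These rates therefore need not hold for the cluster's members. Intervals used scipy 1.17.1 and figures matplotlib 3.10.9 in Python 3.11.15. The study's qPCR and cell experiments were not analysed here.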

Additional observations from a re-analysis of the deposited data

How the results depend on the processing

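The 15 members called higher became 14 with RLE scaling (miR-410-3p lost) and stayed 15 with TMM factors from the other miRNAs and with limma-trend on log2(TPM + 1). With at least 10 reads in every library only 6 members could be tested, and all 6 were called. Counting names with near-equal counts (within 5% or 2 reads in each library) once gave 14 of 18. That rule looked at counts alone. It joined miR-410-3p with miR-485-5p, whose sequences are unlike, and left miR-299a-3p and miR-299b-5p apart. With the replicate block, 0 of 19 members and 0 of all 418 miRNAs were called by edgeR (17 members higher at an unadjusted p, smallest adjusted p 0.0692; DESeq2 without a block called 18). The sources used here state no pairing by replicate number. Correlations of same-numbered deviations from the group means were -0.23, -0.39 and -0.18. With 3 libraries per group, these cannot decide if the numbers pair the samples. Leaving out 1 library gave 0 (without IR replicate 3) to 15 called members. The cause was not tested. The summed ratio of 4.67, with an SD of 3.04 from the spread between replicates, was 3.37 to 5.79 under the alternatives run. With so wide an SD, staying within it is a weak check. The number of hairpins with separate arm shares was 1 to 3 with 1 library left out. No log2 fold change of a tested member changed sign in any alternative. With 1 to 58 reads, the 33 members under the filter are limited by depth, most of all in IR replicate 2, where 3 reads are 0.795 TPM.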
